A study of Sus scrofa with 15 samples.

Results

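Expression of AMH and of genes used to judge Sertoli cell maturity was examined in testis RNA of piglets fed 5 neonatal diets. Sertoli cells are the somatic cells of the seminiferous tubule that nurse the germ cells. The genes were chosen by name, with earlier results of these data known: AMH, AMHR2, FSHR, CLU, TF, KITLG, GDNF, CST12 and SHBG. Of these 9 genes, 7 had a row among the 30476 genes of the count table, and all 7 passed the filter on low counts with 15634 genes in total. CST12 and SHBG were not analysed here. In RefSeq's annotation of Sscrofa11.1, AMH (ENSSSCG00000035812) lies on chromosome 2 from 76415564 to 76418315, and AMHR2 (ENSSSCG00000000271) on chromosome 5 from 18642212 to 18648859. FSHR (ENSSSCG00000029084) lies on chromosome 3 from 91607236 to 91775255, KITLG (ENSSSCG00000035495) on chromosome 5 from 94016992 to 94110219, and GDNF (ENSSSCG00000038727) on chromosome 16 from 22936602 to 22965929. CLU (ENSSSCG00000009668) lies on chromosome 14 from 11336585 to 11352569, and TF is ENSSSCG00000011640.

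Male Dutch Landrace Duroc piglets received their diet from postnatal day 2, and testes were taken on day 21. The groups were Sow (sow milk from a bowl), Milk (cow's milk formula), Soy (soy formula), M + E2 (milk formula with 17beta-estradiol, aimed at a serum level of 15 to 30 pmol/L) and M + G (milk formula with genistein, a soy isoflavone, at 84 mg/L). The labels give that genistein value as a serum concentration and the study's methods as one of the diet. The estradiol range is the aim and not the level reached. Serum estradiol that the paper measured was above this range in every group, also in those without added estradiol. It was far higher in M + E2 than in Milk. Each group held 3 libraries of testis tissue, 1 per piglet, so every value below is an average over all cell types in the tissue used. The paper describes frozen tissue samples and does not state how much of the organ each held. All piglets had been with the sow until the diets began.

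AMH, anti-Müllerian hormone, is made by immature Sertoli cells and makes the Müllerian ducts regress in the male fetus. It binds AMHR2, its own type II receptor, which acts through type I receptors and SMAD proteins. AMH output falls at puberty as Sertoli cells mature under androgen, while FSH, acting on FSHR, drives Sertoli cell division and can raise AMH. KITLG and GDNF are Sertoli cell products that act on germ cells, through KIT and through RET with GFRA1. Clusterin (CLU) and transferrin (TF) are secreted Sertoli cell glycoproteins long used as measures of the cells' function.

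Reads counted on genes ranged from 6097552 to 9488579 per library. Of the 105 pairs of libraries, 4 had a correlation across genes below 0.9, all of them with Sow 2, which the study's methods leave out. The fit therefore used 14 libraries, with 2 from Sow, and the values of Sow 2 are given beside the others. Levels are given in CPM, read counts relative to a library size that TMM has scaled so that most genes are taken as equal between libraries. Other Sertoli cell markers were present in every library: SOX9, a Sertoli cell transcription factor, ranged from 36.2 to 146 CPM, and the 11 markers used summed to between 1181 and 2902 CPM. In 3 libraries, Milk 2, Soy 3 and M + G 2, the 5 markers of peritubular myoid cells (ACTA2, MYH11, CNN1, TAGLN and DES) summed to 3244, 4016 and 2381 CPM. They summed to between 284 and 989 CPM in the other 12 libraries. These 3 libraries are marked wherever they bear on a result. Which cells gave these 5 markers was not tested, and the name of the list does not settle it. Summed markers of endothelial cells were also highest in Soy 3 (1083 CPM) and Milk 2 (978 CPM). In M + G 2 they were 663 CPM, below M + E2 2 (712 CPM), but its summed epithelial markers were the highest (43.0 CPM).

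**Figure D1:**
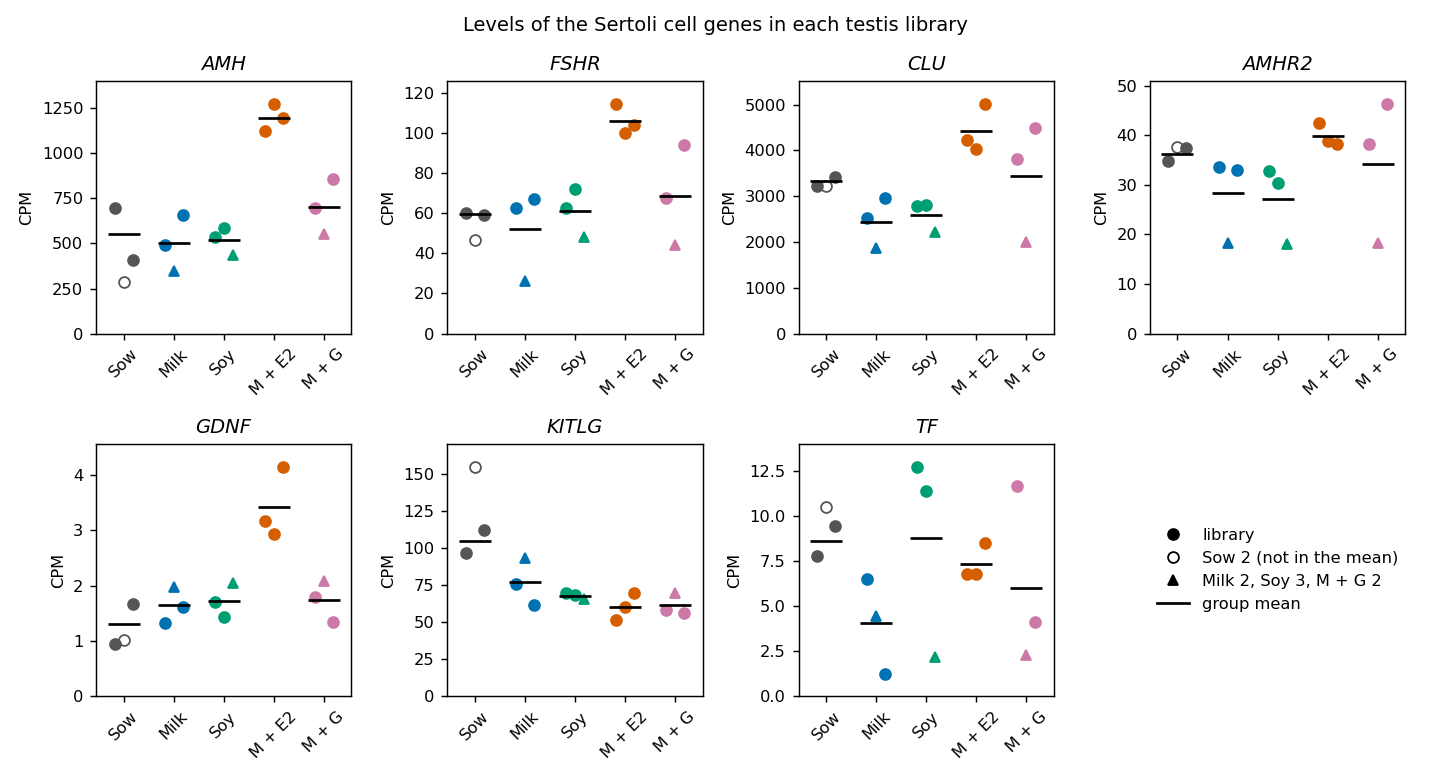
CPM of the 7 genes (vertical axes, each from 0) in each library, by diet group (horizontal axis); points are libraries, bars are group means, the open circle is Sow 2 (in no mean) and triangles are the 3 libraries rich in myoid markers. All 3 M + E2 libraries lie above every other library for AMH, FSHR and GDNF, and the Sow libraries lie above every other library for KITLG.

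AMH was highest in the M + E2 group. Its level was 1126, 1274 and 1194 CPM in the M + E2 libraries, from 7794, 9966 and 11215 reads. The M + G libraries had 698, 553 and 856 CPM, the Milk libraries 493, 349 and 658, and the Soy libraries 536, 587 and 439. The Sow libraries had 696 (Sow unnumbered), 287 (Sow 2) and 410 CPM (Sow 3). Every M + E2 library was thus above each of the other 12 libraries, while the other 4 groups overlapped one another. Group means were 1198 ± 73.8 (SD, n = 3) in M + E2, 702 ± 152 in M + G, 553 ± 202 (n = 2) in Sow, 521 ± 75.4 in Soy and 500 ± 155 in Milk. In this order, no neighbours below M + E2 differed by more than their spread.

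Against Milk, the formula to which the estradiol was added, AMH was 2.35-fold higher in M + E2 (log2 fold change 1.24, SE 0.275). The unadjusted p of edgeR's quasi-likelihood test was 0.000570, and AMH ranked 51 of all genes by it, but the p adjusted over all genes was 0.175. Against Soy, AMH was also higher in M + E2: the fitted log2 change of Soy against M + E2 was -1.14 (SE 0.275, adjusted p = 0.132). Against Sow the log2 fold change was 1.04 (SE 0.314) with an adjusted p of 0.0540, just past the limit of 0.05. With all 3 Sow libraries in the fit it was 1.37, with an adjusted p of 0.00826. It passed also in edgeR's exact test (1.06, adjusted p = 4.6e-05) and in DESeq2 (1.06, adjusted p = 0.00745). Against the mean of the 3 formulas without estradiol (Milk, Soy and M + G), a contrast added after the data were seen, it was 1.04 (SE 0.210, adjusted p = 0.0898). In tissue of mixed cell types, more cells of a type and more RNA per cell cannot be told apart. The paper counted more Sertoli cells in sections of M + E2 testes than in those of Milk. What part this had in the levels of AMH and the other Sertoli cell genes was not tested.

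Because AMH is made by Sertoli cells, its level was also set against the 11 other Sertoli cell markers. On the log2(CPM + 1) scale AMH stood 4.09, 3.98 and 4.15 above the mean of these markers in the M + E2 libraries. In the other 12 libraries it stood between 2.44 (Sow 2) and 3.57 (Sow unnumbered) above that mean. The groups therefore did not overlap on this scale either. The difference between M + E2 and the other 3 formulas was 0.84 (two-sided exact permutation p = 0.004545, the smallest that 3 against 9 libraries allow), and 0.1818 after Benjamini-Hochberg adjustment over the 40 differences tested. Between M + E2 and Milk it was 0.92 (exact permutation p = 0.1, the smallest that 3 against 3 libraries allow). Whether these markers are confined to Sertoli cells was not tested, so the scale does not give AMH per Sertoli cell. KRT18, 1 of the 11, had 1, 14 and 1 reads in M + E2, against 75 in Milk 3 and 180 in M + G 2. It had 6 to 37 reads in the other libraries, and its part in the difference was not tested.

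**Figure D2:**
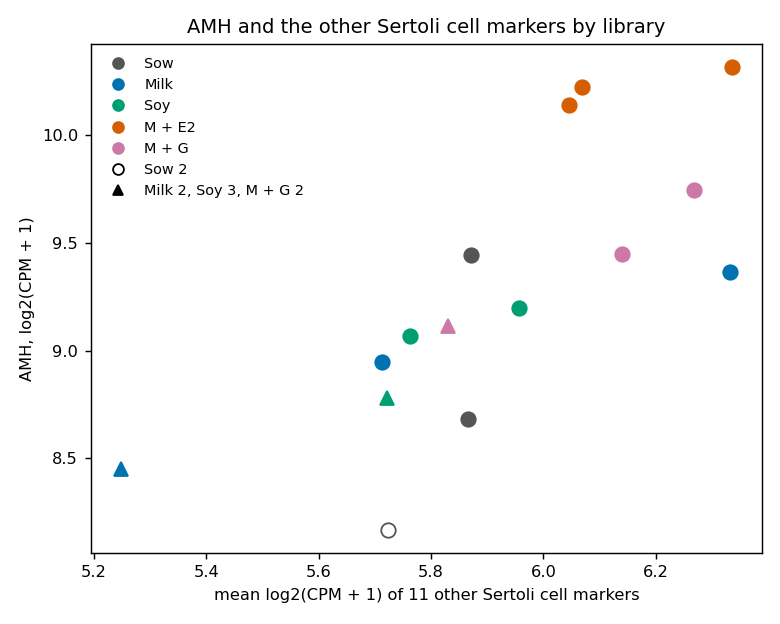
AMH (vertical axis, log2(CPM + 1)) against the mean of 11 other Sertoli cell markers (horizontal axis, log2(CPM + 1)) in each of the 15 libraries, coloured by diet group; the open circle is Sow 2 and triangles are Milk 2, Soy 3 and M + G 2. The 3 M + E2 points lie above all others, also above the Milk and M + G libraries whose marker mean is as high.

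The genes whose levels followed AMH most closely were found from the root mean square difference of log2 CPM over the 14 libraries, each gene set to its own mean. These were SPOCD1 (0.210), PHF13 (0.217), SPHK1 (0.218), ZNF541 (0.222) and PAK6 (0.228), where the median over all genes was 0.619 and AMH's own SD was 0.560. SPHK1, a sphingosine kinase, had mean levels of 231 CPM in M + E2, 144 in M + G, 127 in Milk, 120 in Soy and 109 in Sow. PHF13 had 101 CPM in M + E2 and 53.6 to 70.0 in the other groups, and the other 3 genes lay below 10 CPM in every group.

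The AMH receptor AMHR2 passed the test in none of the comparisons. It was at 42.5, 38.9 and 38.1 CPM in M + E2, at 34.8, 37.7 and 37.4 in Sow, at 33.6, 18.2 and 33.0 in Milk, at 32.9, 30.4 and 18.1 in Soy and at 38.1, 18.2 and 46.3 in M + G. The 3 lowest values, 18.1 to 18.2 CPM, were those of the 3 libraries rich in myoid markers, and the other 12 libraries lay between 30.4 and 46.3. Its unadjusted p stayed above 0.05 in this fit, and its fitted log2 changes ran from -0.50 (Soy against M + E2) to 0.47 (M + E2 against Milk).

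Of the 12 genes fixed as AMH signalling partners and targets (type I receptors, SMADs and ID genes), 1 was called in M + E2 against Sow, close to the 5.0% of all genes called, and their median log2 change of 0.01 equalled that of all genes. That gene was SMAD7, an inhibitory SMAD, at 47.9 CPM against 18.1 in Sow (log2 fold change 1.34, SE 0.202, adjusted p = 0.0242), a call lost when any M + E2 library was left out. It was higher than Sow in every formula library, with means of 34.7 CPM in Milk, 35.8 in Soy and 41.0 in M + G. Between all formulas and Sow, 14.8% of all genes did not overlap. In M + E2 against Milk 4 of the 12 were higher and 8 lower. None of them was called there by edgeR's quasi-likelihood test, its exact test or DESeq2. An unadjusted p below 0.05 was found for 4, against 17.7% of all genes.

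FSHR, the receptor of follicle-stimulating hormone, was likewise highest in M + E2. Its level was 114, 99.9 and 104 CPM in these libraries. In M + G it was 67.3, 43.9 and 94.0 CPM, in Milk 62.4, 26.3 and 67.1, in Soy 62.7, 71.9 and 48.0, and in Sow 60.3, 46.4 and 58.9. All 3 M + E2 libraries were above the other 12, though M + G 3, at 94.0 CPM, came close to M + E2 2, at 99.9. The lowest value in each of Milk, Soy and M + G was in the library rich in myoid markers. FSHR was 2.00-fold higher in M + E2 than in Milk (log2 fold change 1.00, SE 0.321, adjusted p = 0.204) by edgeR's quasi-likelihood test. It was -0.74 in Soy against M + E2 (SE 0.318, adjusted p = 0.344). Neither passed after adjustment over all genes.

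Relative to the mean of the other Sertoli cell markers, FSHR was between 0.32 and 0.80 in M + E2 and between -0.48 and 0.30 in the other libraries, on the log2(CPM + 1) scale. Among 12 genes of the pathway below the receptor (the G protein GNAS, protein kinase A subunits, CREB factors, phosphodiesterases and arrestins), 5 were higher and 7 lower in M + E2 than in Sow. None was called by edgeR's quasi-likelihood test, its exact test or DESeq2. An unadjusted p below 0.05 was found for 2, against 33.8% of all genes. GNAS was at 248 CPM against 135 (log2 fold change 0.81, adjusted p = 0.0440), under the 2-fold limit. It was at 275, 229 and 307 CPM in M + G, 187, 164 and 232 in Milk, and 148, 142 and 140 in Soy. Against Milk 11 of the 12 were lower in M + E2, with a median log2 change of -0.19 against -0.03 over all genes.

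GDNF, the growth factor that maintains spermatogonial stem cells, was the only 1 of the 7 genes that edgeR's quasi-likelihood test called in any of the 8 diet comparisons. The exact test and DESeq2 also called AMH in 3 of them. It was low in all libraries. It was at 3.18, 2.94 and 4.15 CPM in M + E2 (22, 23 and 39 reads) and at 0.942, 1.02 and 1.68 CPM in Sow (7, 7 and 14 reads). Milk had 1.33, 1.98 and 1.62 CPM, Soy 1.71, 1.43 and 2.05, and M + G 1.80, 2.09 and 1.34, from 9 to 20 reads. The M + E2 libraries were again above all other libraries, and the other groups overlapped.

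GDNF was 2.48-fold higher in M + E2 than in Sow (log2 fold change 1.31, SE 0.360, adjusted p = 0.0465). This call was lost when any M + E2 library was left out (adjusted p from 0.0894 to 0.123) and without the filter on low counts (0.0603). Against Milk the log2 fold change was 1.03 (SE 0.308, adjusted p = 0.193), and for Soy against M + E2 it was -0.93 (SE 0.303, adjusted p = 0.230). Its receptor parts GFRA1 and RET were at 11.6 and 14.04 CPM in M + E2 and at 7.79 and 8.47 in Sow, and neither was called. In Milk, GFRA1 was at 9.31, 15.6 and 9.71 CPM, on both sides of its M + E2 mean. RET was at 6.50, 4.46 and 11.7 CPM in Milk.

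KITLG, the ligand of the receptor KIT, went the other way: it was highest in Sow and lower in all 4 formula groups. The Sow libraries had 96.9, 155 and 112 CPM. The Milk libraries had 75.4, 93.5 and 61.3 CPM, Soy 69.7, 68.5 and 65.5, M + E2 51.3, 59.9 and 69.4, and M + G 58.3, 69.5 and 56.0. Every formula library lay below every Sow library. Over all genes, 14.8% had no overlap, in either direction, between all formula libraries and the Sow libraries of the fit. Milk 2, at 93.5 CPM, was nearest to Sow and is a library rich in myoid markers. The formula groups overlapped one another.

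The fitted log2 change of KITLG against Sow was -0.86 in M + E2 (SE 0.188, adjusted p = 0.0374), -0.81 in M + G (SE 0.188, adjusted p = 0.116), -0.63 in Soy (adjusted p = 0.320) and -0.49 in Milk (adjusted p = 0.386). These comparisons share the Sow libraries and are not independent. In this fit that of M + E2 passed the adjusted p, and at 1.82-fold it fell short of the 2-fold limit. That of M + G passed the adjusted p in the exact test (-0.77, adjusted p = 0.000565), in DESeq2 (-0.80, adjusted p = 0.0107) and with all 3 Sow libraries (-0.98, adjusted p = 0.0208), also under 2-fold. The difference between M + E2 and M + G was not tested. In M + E2 against Sow with all 3 Sow libraries it was -1.01 (adjusted p = 0.00679) and passed both. With library totals in place of TMM, which raises the median of all genes by 0.30 in this comparison, it was -0.56 (adjusted p = 0.0586). Without any single M + E2 library its adjusted p was 0.0655 to 0.123. Over all 4 formulas against Sow, an added contrast, it was -0.70 (SE 0.150, adjusted p = 0.0688). Against Milk, KITLG in M + E2 had a log2 change of -0.37 (SE 0.171, adjusted p = 0.277).

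KIT, made by germ cells and Leydig cells, was at 218 CPM in M + E2, 135 in Sow and 103 in Milk. The log2 change of KIT against Milk was 1.07 (SE 0.256, adjusted p = 0.186). All 3 M + E2 libraries were above all Milk libraries for KIT, but Soy 3, at 214 CPM, lay within the M + E2 range of 187 to 240. Between M + E2 and Milk, 17.5% of all genes did not overlap.

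CLU, a chaperone-like secreted glycoprotein, was at 4219, 4020 and 5012 CPM in M + E2. The Sow libraries had 3231, 3231 and 3414 CPM, Milk 2513, 1860 and 2956, Soy 2786, 2796 and 2209, and M + G 3812, 1999 and 4497. M + E2 lay above Sow, Milk and Soy, and overlapped M + G. Of all genes, 62.3% did not overlap between M + E2 and Sow, 17.5% between M + E2 and Milk, and 20.6% between Soy and M + E2. In M + E2 against Sow the log2 change of CLU was 0.34 (edgeR's quasi-likelihood test, adjusted p = 0.496). The lowest libraries of Milk, Soy and M + G were again the 3 rich in myoid markers. By edgeR's quasi-likelihood test CLU was 1.78-fold higher in M + E2 than in Milk (log2 fold change 0.83, SE 0.301, adjusted p = 0.223). For Soy against M + E2 the log2 change was -0.71 (adjusted p = 0.338).

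TF, the iron carrier that brings iron to germ cells, was low and scattered in every formula group but M + E2. It was at 7.80, 10.5 and 9.46 CPM in Sow and at 6.79, 6.77 and 8.52 in M + E2. Milk had 6.50, 4.46 and 1.25 CPM, Soy 12.8, 11.4 and 2.16, and M + G 11.7, 2.30 and 4.12. Within Milk, Soy and M + G the highest library was 5.22, 5.89 and 5.08 times the lowest, and with all 14 libraries TF had no unadjusted p below 0.05. Without the 3 libraries rich in myoid markers, 2 of which held the lowest TF of Soy and M + G, TF in Soy against Milk had a log2 change of 1.69 (adjusted p = 1.00, edgeR). RefSeq has a pair of TF entries on chromosome 13, from 74862502 to 74907059 and from 74930655 to 74970599, and reads of near copies may have been split. TFRC, the transferrin receptor, was at 111 CPM in M + E2 against 664 in Sow (log2 fold change -2.65, SE 0.389, adjusted p = 0.0209), a call likewise lost without any single M + E2 library. It was also below every Sow library in each library of Milk (mean 222 CPM), Soy (244) and M + G (216). Of all genes, 14.8% did not overlap between all formulas and Sow.

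**Figure D3:**
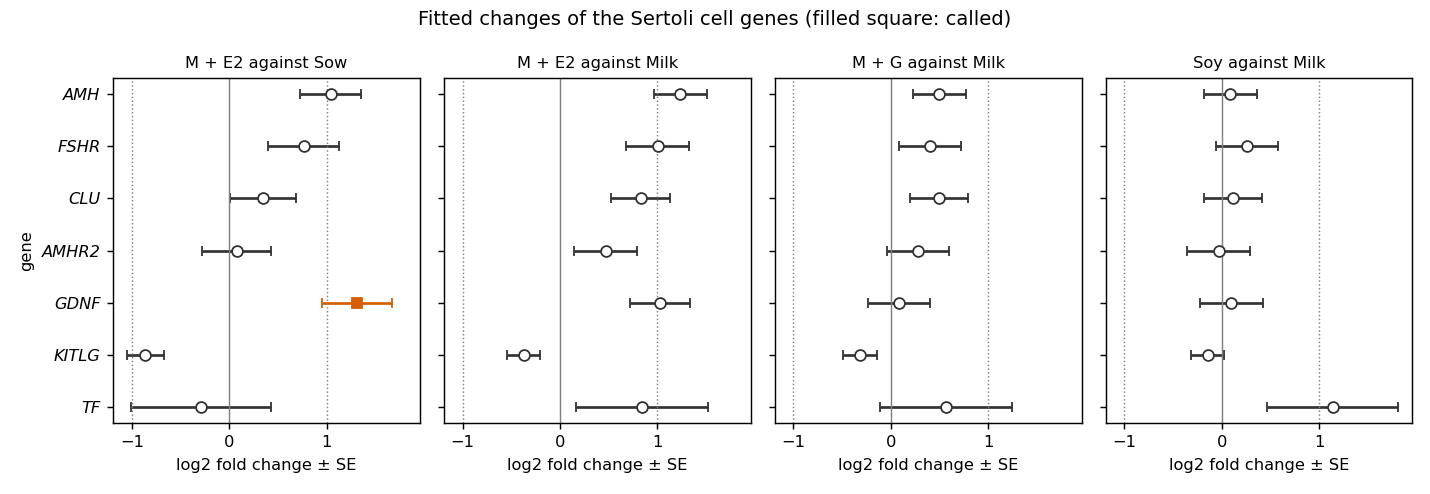
Fitted log2 fold changes (horizontal axes) of the 7 genes (vertical axis) with bars of ± 1 SE, for M + E2 against Sow, then for each supplemented formula and for Soy against Milk; dotted lines mark 2-fold and the filled square marks the only call of the quasi-likelihood test, GDNF. Under M + E2, AMH, FSHR and GDNF lie to the right in both panels, and in Soy against Milk no gene but TF lies above 0.26.

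Over the 7 genes, 1 was called in M + E2 against Sow, where 5.0% of all tested genes were called, at an adjusted p of 0.05 or less and at least 2-fold. DESeq2 also called 1, which was AMH. There, 3 of the 7 had an unadjusted p below 0.05, as had 33.8% of all genes, and the median log2 change was 0.34 against 0.01 over all genes. In M + E2 against Milk none was called by edgeR's quasi-likelihood test, which called 0% of all genes. Its exact test and DESeq2 each called 1, AMH. In that comparison 5 of the 7 had an unadjusted p below 0.05, against 17.7% of all genes, and their median was 0.84 against -0.03. The libraries of the 2 groups did not overlap for 6 of the 7, against 17.5% of all genes. Because the genes were chosen with earlier results known, these counts do not test whether the set stands out.

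In Soy against M + E2 none was called by the quasi-likelihood test, against 0.147% of all genes. The exact test and DESeq2 each called 1, AMH, and 4 of the 7 had an unadjusted p below 0.05, against 13% of all genes. For M + E2 against the other formulas the quasi-likelihood test called none (0.0192% of all genes) and DESeq2 called AMH. In that contrast AMH, FSHR and GDNF had M + E2 libraries above all 9 others, against 5.86% of all genes without overlap.

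For the phytoestrogen diets, in M + G against Milk and in Soy against Milk none of the 7 genes was called by edgeR's quasi-likelihood test, its exact test or DESeq2, and none had an unadjusted p below 0.05 in the unpaired fit. The quasi-likelihood test called 0% of all genes in both. The labels do not pair the piglets, and the study's methods assigned them to diets at random. Same-numbered Milk and M + G libraries deviated together, however, with r of 0.263, 0.577 and 0.487. Those of Milk and M + E2 did not (-0.0813, -0.117 and -0.410). The highest r was that of Milk 2 and M + G 2, both rich in myoid markers. A block for Milk and M + G was thus chosen from these same data, and its p-values cannot stand for a paired design. Within all 3 same-numbered pairs AMH, FSHR and CLU were higher and KITLG lower in M + G. With the replicate number as a block, in a fit of Milk and M + G alone, AMH had a log2 change of 0.52 (SE 0.206) and FSHR 0.44 (SE 0.178). Their unadjusted p in edgeR's quasi-likelihood test was then 0.0306 and 0.0318, and their adjusted p 0.746, so that 0 of the 7 were called. Without the block, in the fit of 14 libraries, fitted log2 changes ran from -0.32 (KITLG) to 0.57 (TF) in M + G. In Soy they ran from -0.14 (KITLG) to 1.14 (TF), where the SE of TF was 0.674. For AMH, singled out after its values were seen, they were 0.49 (SE 0.272) in M + G and 0.09 (SE 0.271) in Soy.

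Against Sow, none of the 7 was called in M + G (0.0576% of all genes called), Soy (0.0128%) or Milk (0.0192%) by any of these 3 tests. In each, KITLG alone had an unadjusted p below 0.05 in the quasi-likelihood test. The same held for all formulas against Sow (0.0704% called), where the exact test was not run. In the test over all 5 diets none passed an adjusted p of 0.05, against 0.0640% of all genes. In that test AMH and KITLG each had an adjusted p of 0.194, GDNF 0.210, FSHR 0.290, CLU 0.336, AMHR2 0.635 and TF 0.654.

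The other Sertoli cell genes were described in the same way. Of 7 regulators of AMH transcription (SOX9, SOX8, NR5A1, WT1, GATA4, NR0B1 and DMRT1), all 7 had a higher fitted level in M + E2 than in Milk, with a median log2 change of 0.63. None was called by any of the 3 tests, and 3 had an unadjusted p below 0.05, against 17.7% of all genes. These were WT1 (90.4 against 54.6 CPM, log2 0.70, adjusted p = 0.186), SOX9 (136 against 68.5 CPM, 0.96, adjusted p = 0.207) and DMRT1 (48.2 against 30.5 CPM, 0.63, adjusted p = 0.207). For these 3 genes all M + E2 libraries were above all Milk libraries, where 17.5% of all genes did not overlap. The 7 regulators summed to 370 CPM in Milk 2, which is rich in myoid markers, against 701 in Milk 1 and 1032 in Milk 3. Against Sow 6 of the 7 were higher, again with no call by the quasi-likelihood test or DESeq2 and 1 by the exact test. Of the 7, 2 had an unadjusted p below 0.05, against 33.8% of all genes. DMRT1 there was level, at 48.2 against 44.3 CPM.

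The wider list of 11 other Sertoli cell markers, 6 of which are also among those regulators, summed to 2438 to 2586 CPM in M + E2. It summed to 1807 to 2020 in Sow, 1181 to 2365 in Milk, 1477 to 1995 in Soy and 1535 to 2902 in M + G. In M + E2 against Milk 10 of the 11 were higher (median 0.36), and in M + G against Milk also 10 of 11 (median 0.30). None was called in either by any of the 3 tests. In M + E2 3 had an unadjusted p below 0.05 (17.7% of all genes) and in M + G 0 (2.6% of all genes).

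**Figure D4:**
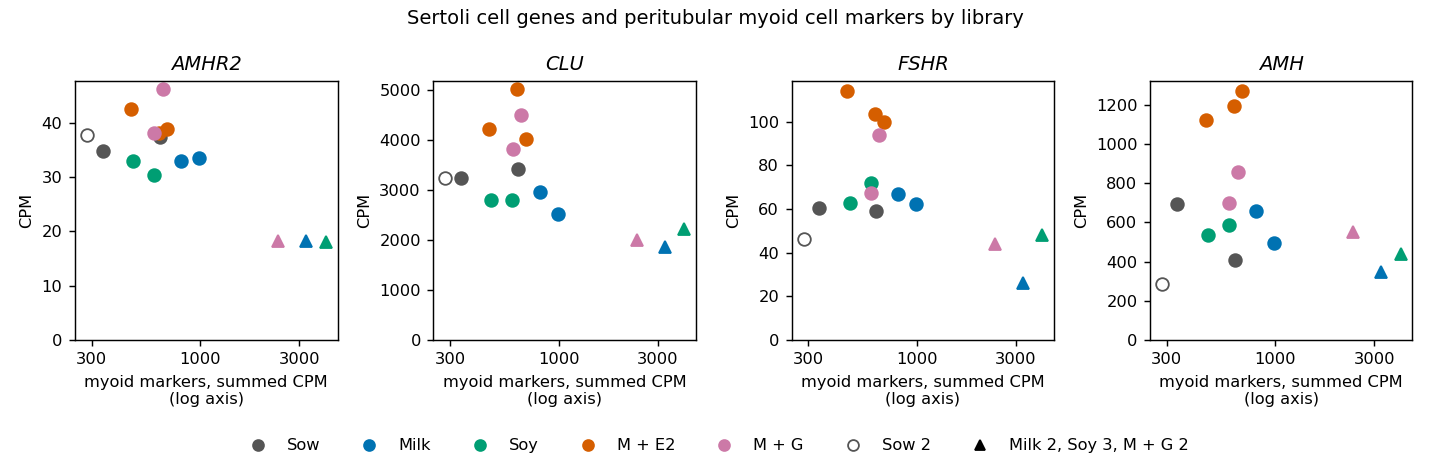
CPM of AMHR2, CLU, FSHR and AMH (vertical axes, each from 0) against the summed CPM of 5 peritubular myoid cell markers (horizontal axes, log scale) in the 15 libraries, coloured by diet group; triangles are Milk 2, Soy 3 and M + G 2. The triangles, at 2381 CPM of myoid markers or more, hold the 3 lowest values of AMHR2 and 3 of the 4 lowest values of FSHR.

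Markers of other cell types moved with some of these results, and their part in them was not tested. All 5 myoid markers were lower in M + E2 than in Milk, with a median log2 change of -1.52, and none was called by the quasi-likelihood test. When Milk 2, Soy 3 and M + G 2 were left out, an alternative chosen after the data were seen, AMH in M + E2 against Milk had a log2 change of 1.03 (adjusted p = 0.165), FSHR 0.68 (0.174) and CLU 0.66 (0.287). Against Sow, whose libraries all remained, AMH was called (1.04, adjusted p = 0.0254) together with GDNF. FSHR (0.76, adjusted p = 0.0221) and KITLG (-0.86, adjusted p = 0.0194) then passed the adjusted p but not the 2-fold limit.

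Leydig cells, which make the androgen that lowers AMH at puberty, had 5 markers in the table. All 5 lay below their Sow level in M + E2 (median log2 change -0.65 against 0.01 over all genes), and 1 was called, where 5.0% of all genes were. It was STAR, which carries cholesterol into the mitochondrion for steroid synthesis, at 1271 against 3488 CPM (log2 fold change -1.53, SE 0.412, adjusted p = 0.0449), again lost without any single M + E2 library. Their summed level was 13253 to 14045 CPM in M + E2 and 16515 to 24772 in the other libraries except Milk 2, which had 10597. AMH in Milk 2 was 349 CPM, the second lowest of all libraries. Milk 2 was also rich in myoid markers and lowest in the sum of the other Sertoli cell markers (1181 CPM). Relative to the mean of those markers its AMH was 3.20, within the range of the libraries outside M + E2. Milk 2 therefore does not show how AMH goes with Leydig cell markers, which was not tested.

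The remaining lists were germ cell, endothelial, macrophage, erythroid and rete or epididymal epithelium markers. Germ cell markers summed to 35.5 to 45.4 CPM in M + E2 and to 23.2 to 58.1 in the other libraries, and macrophage markers to 120 to 132 CPM against 65.3 to 195. Endothelial markers were 537 to 712 CPM in M + E2, 213 to 355 in Sow, and highest in Milk 2 (978) and Soy 3 (1083). Erythroid markers spread from 238 to 1479 CPM over all libraries. SLC4A1 was called higher in M + E2 (4, 11 and 48 reads) than in Sow (2 and 1 reads), a call lost without any single M + E2 library and in DESeq2. Epithelial markers were at 1.36 to 5.38 CPM except in M + G, where they reached 7.06 to 43.0.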

How the data were processed

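Testis RNA of 15 piglets was sequenced, 1 library each. The authors mapped reads with CLC Genomics Workbench, first to a porcine gene library and the rest to the Ensembl pig genome, and deposited the count of reads per gene and library without normalization. Whether these counts hold all reads was not determined. The number of columns left unused was 0. Column names of Sow and Soy number only libraries 2 and 3, so the remaining library is called unnumbered.

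The tools were R 4.3.3, edgeR 4.0.16 (TMM, filterByExpr with a minimum count of 10), limma 3.58.1 and DESeq2 1.42.0. All 5 groups entered 1 quasi-likelihood fit without Sow 2, with p adjusted by Benjamini-Hochberg over 15634 genes. Genes were called at an adjusted p of 0.05 or less and at least 2-fold. P-values measure the spread between these libraries, which held 6097552 to 9488579 reads on genes. The fit was tested on simulated data. Alternatives were all Sow libraries, fits of the groups compared, each library left out, a replicate block, other filters, size factors and tests, and, added later, library totals and leaving out 3 libraries.

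The replicate numbers were checked for pairing from the deviations from group means: same-numbered Milk and M + G libraries had r of 0.263, 0.577 and 0.487, and other group pairs did not all exceed 0.1. All members were described, with a test printed where p was below 0.05 or a call was made. Members and lists were chosen with earlier results of these data known. A gene of the Sertoli cell lists is not reported here and was left out of their sums and counts.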

Additional observations from a re-analysis of the deposited data

How the results depend on the processing

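Over the alternatives run, 20 fold changes of single genes gave 328 values: 298 kept their side of the call, 4 lost a call, 26 gained one and 0 changed sign. In M + E2 against Sow, where 1 of the 7 genes was called, the count was 2 at adjusted p alone, 3 with all 3 Sow libraries (AMH, GDNF and KITLG), 2 with library totals, 2 with only the groups compared, 2 in the exact test and 2 without Milk 2, Soy 3 and M + G 2. Leaving out single libraries gave 0 to 3, with 0 without any of the M + E2 libraries and 3 without Sow unnumbered or Sow 3, Sow 2 being put back. In M + E2 against Milk, where 0 were called, the exact test and DESeq2 gave 1 (AMH), and leaving out single libraries 0 to 2 (AMH and FSHR without Milk 3). In Soy against M + E2, with 0, the exact test and DESeq2 gave 1. In M + G against Sow, with 0, leaving out either Sow library gave 1 (KITLG), so that the range was 0 to 1. In M + E2 against the other formulas, with 0, the count was 1 with no filter, with library totals and in DESeq2, and 0 to 1 with single libraries left out (1 without Milk 3). In all formulas against Sow it was 0 to 1 (1 without either Sow library). Over all 5 diets, with 0, it was 3 with all 3 Sow libraries and 0 to 2 without single libraries (2 without Milk 3). The cause was not tested. AMH in M + E2 ranged from 1.00 to 1.71 against Sow (adjusted p from 4.6e-05 to 0.140) and from 1.03 to 1.48 against Milk (0.00327 to 0.551). The number of all genes called in M + E2 against Sow was 781, with a range of 6 to 3324 over the alternatives, and 0 to 1256 against Milk.

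The exact test was not run for the contrasts of several groups or the test over all diets, and DESeq2 not for the latter. GDNF has no adjusted p in DESeq2 against Sow and no value at 10 counts or more in every library. With the replicate block for Milk and M + G, AMH was 0.52 (adjusted p = 0.746) by edgeR's quasi-likelihood test, with 0 of the 7 called, so that the replicate block changed no call there. Over the numbered libraries it also left 0 called between formulas. Of all genes 1 was then called in Soy against M + E2, against 23 in the fit of 14 libraries. That block fit also left out Sow and Soy unnumbered, so the fall cannot be put down to the block alone. No paired analysis was possible against Sow because only 1 numbered Sow library is in the fit. Depth limits GDNF most, with 7 to 39 reads per library.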
